A study of Mus musculus with 15 samples.

Results

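The genes described here are the Wnt ligands, their receptors and their antagonists in mouse uterine epithelium, 51 genes of the 28269 entries listed in any table of the series. They were taken by symbol and comprise 13 Wnt ligands, 10 Frizzled receptors, 4 co-receptors, 8 secreted antagonists, 8 R-spondins, Lgr receptors and membrane ubiquitin ligases, 4 cytoplasmic inhibitors and 4 TCF/LEF factors. RNA was sequenced from luminal epithelium (LE), the sheet lining the uterine cavity, and from glandular epithelium (GE), on day 4, with 3 libraries in each of 5 groups. The groups were wild-type LE, wild-type GE, E-OEX LE, E-OEX GE and U-OEx LE. E-OEX and U-OEx both overexpressed Notch1, the gene of a cell surface receptor, per the labels; the labels do not spell out the abbreviations, which are used as names only. They give neither the promoter nor the Cre line that drives the overexpression, nor the animals' age or strain. They also do not say whether the 3 libraries of a group came from separate animals, so the p-values measure only the spread between these libraries, which may be technical.

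Wnt proteins are secreted, lipid-modified ligands. They bind Frizzled receptors together with Lrp5 or Lrp6, which stabilises beta-catenin and lets it act with TCF/LEF factors on genes such as Axin2, or together with Ror1 or Ror2 in pathways that do not use beta-catenin. Secreted Frizzled-related proteins (Sfrp), Wif1, the lipase Notum and Dkk proteins such as Dkk2 restrain the ligands or receptors. Rnf43 and Znrf3 remove Frizzled from the membrane, and R-spondins acting through Lgr receptors block that removal. In the mouse uterus, Wnt7a is known as a ligand of the luminal epithelium that is needed for gland formation, and Wnt4 as a ligand of the stroma at implantation.

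Values are scaled read counts: reads divided by 1 factor per library by the authors. The wild-type tables list 6414 genes and those of E-OEX list 4903, and in both the listed genes have GE and LE means at least 2-fold apart (the smallest absolute log2 ratio was 1.0 in wild type and 0.998 in E-OEX, where 1 gene lay below 1). The U-OEx tables list 27946 entries. A library held 3818041 to 4797424 reads in its listed genes in wild type, 1980800 to 3494859 in E-OEX and 13541644 to 14981505 in U-OEx; the first 2 are sums over selected genes and not sequencing depths. Of the 51 Wnt genes, 28 were listed in wild type, 21 in the E-OEX tables and 50 for U-OEx, with 12 in all 3. A gene outside a table was not analysed in that genotype. Every comparison between genotypes thus uses genes selected on some of the libraries compared, and the part of this selection was not tested. The shares of U-OEx entries that were also listed in the other tables were 56% for the Wnt genes and 22.2% for all entries in wild type, and 40% and 16.7% in E-OEX.

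The labelled tissues were checked against marker genes. Of the luminal markers, Wnt7a is described below. Calb1 stood at 17811 to 44990 in wild-type LE and 1346 to 9677 in E-OEX LE, against 189.6 to 552 in wild-type GE and 152 to 669 in E-OEX GE. Lpar3 stood at 6184 to 7940 in wild-type LE and 819 to 3003 in E-OEX LE, against 195 to 273 in wild-type GE and 229 to 446 in E-OEX GE. In U-OEx LE both were as low as in GE, at 209 to 254 for Calb1 and 215 to 307 for Lpar3, so of these 3 markers Wnt7a alone set U-OEx LE apart from GE. Gland markers (Foxa2, Lif, Spink1, Cxcl15, Ttr, Wfdc3) summed to 22856 to 30568 in wild-type GE and 5873 to 8610 in E-OEX GE. They summed to 49.7 to 92.2 in wild-type LE, 215 to 1321 in E-OEX LE and 1039.7 to 1440 in U-OEx LE. Within GE the gland list was not uniform between the genotypes. Lif, Spink1, Cxcl15 and Ttr were lower in every E-OEX than in every wild-type GE library, while the ranges of Foxa2 and Wfdc3 overlapped. The summed level of 9 stromal markers, among them collagen genes, was 34824 to 101146 in wild-type GE and 77153 to 91815 in E-OEX GE, whereas the LE libraries held 369 to 7760. For 5 smooth muscle markers the sum was 2734 to 4878 in wild-type GE and 14150 to 17496 in E-OEX GE. The GE libraries thus held many reads of stromal and muscle marker genes. In bulk samples, fewer cells of a type and less RNA per cell cannot be told apart.

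The ligands divided sharply between the epithelia. Wnt7a (chr6:91363981-91411363, GRCm38) stood at 2958, 5006 and 3558 in the 3 wild-type LE libraries and at 7.79, 3.79 and 9.52 in wild-type GE. In E-OEX it stood at 2226, 6406 and 1738 in LE and at 48.1, 1.15 and 6.56 in GE, and in U-OEx LE at 1344, 2811 and 1578. Every LE library lay above every GE library, and the LE ranges of wild type and E-OEX overlapped. Wnt7b (chr15:85535437-85582473), a close relative of Wnt7a, stood at 419.5, 876 and 433 in wild-type LE, at 2172, 2039 and 1130.1 in E-OEX LE and at 2869, 3029 and 2092 in U-OEx LE. Its GE values were 10.7, 7.58 and 0.865 in wild type and 100.1, 9.20 and 8.43 in E-OEX. The first E-OEX GE library held the highest GE value of both ligands. Wnt11 (chr7:98835112-98855195), a ligand of the beta-catenin-independent branch, had the highest scaled count of any listed Wnt ligand in wild-type LE, at 7872, 10924 and 11111, against 259, 129 and 152 in wild-type GE.

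**Figure D1:**
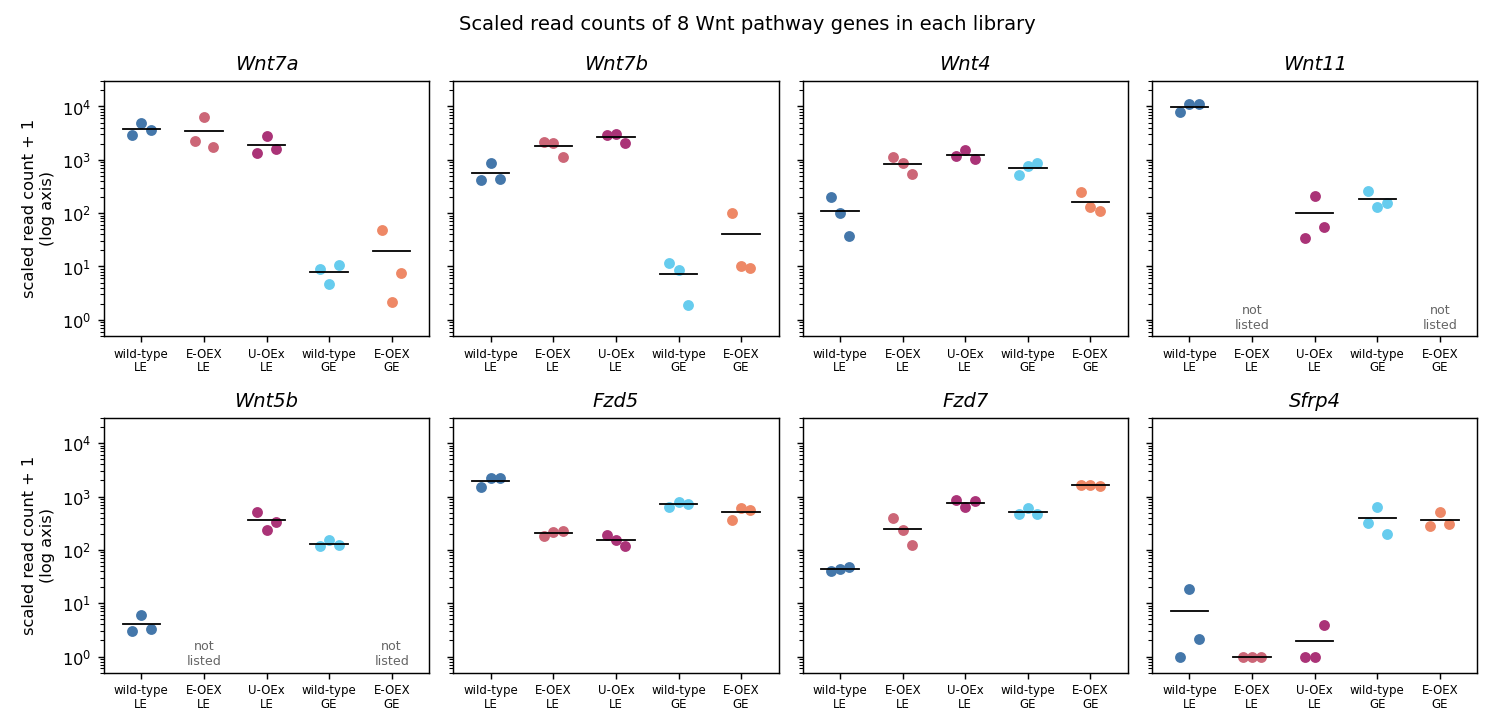
Scaled read counts plus 1 (log axis) of 8 Wnt pathway genes in each library, by group; each point is 1 library and each line the mean of 3. Wnt7a and Wnt7b are higher in all LE than in all GE libraries, Wnt4 and Fzd5 change places between wild type and E-OEX, and Wnt11 and Wnt5b, not listed in E-OEX, move in opposite directions in U-OEx LE.

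In wild type, 16 of the 28 listed Wnt genes were higher in GE and 10 lower, each with an adjusted p under 0.05 (limma on log2(value + 1), Benjamini-Hochberg over all genes tested). The background was 97% of the 6414 genes called, 56.6% higher and 40.5% lower. The tables were made from genes that differ between the epithelia, so these counts describe the list and nothing is read from them. Beside Wnt7a, Wnt7b and Wnt11, the genes lower in GE were the receptors Fzd3, Fzd5, Fzd6 and Fzd10, the co-receptor Ror2, the factor Tcf7l1 and the lipase Notum. Higher in GE were 3 ligands (Wnt4, Wnt5b, Wnt6), 3 receptors (Fzd1, Fzd4, Fzd7), Lrp5, Ror1, Axin2, Znrf3, Lef1 and Tcf7. So were the antagonists Sfrp2, Sfrp4 and Dkk2, and the Dkk family member Dkk3. The call for Tcf7 was lost without the second wild-type GE library (adjusted p = 0.0677, limma), in DESeq2 (0.0834) and under quantile scaling (0.106). Dkk3, a secreted Dkk family member, stood at 12586, 11907 and 16339.8 in wild-type GE and at 7.25, 84.0 and 124 in wild-type LE. Axin2, a direct target of beta-catenin that limits the pathway, stood at 1700.2, 1751 and 2729 in GE and at 273, 289.8 and 211 in LE.

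The 2 other listed wild-type genes did not pass. Lgr5, an R-spondin receptor of epithelial progenitors, stood at 109.8, 1673 and 438 in wild-type LE and at 124, 156 and 141 in GE. Rspo1, an R-spondin, stood at 17.6, 402 and 115 in LE and at 38.9, 70.1 and 33.7 in GE. In both, the second LE library was the highest and the first the lowest, and the LE and GE ranges overlapped. The same order held in wild-type LE for Sfrp2, at 2.07, 53.3 and 11.2, for Sfrp4, at 0, 17.4 and 1.12, and for the 9 stromal markers, whose sums were 369, 7760 and 2471. The part of stromal RNA in these genes was not tested.

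**Figure D2:**
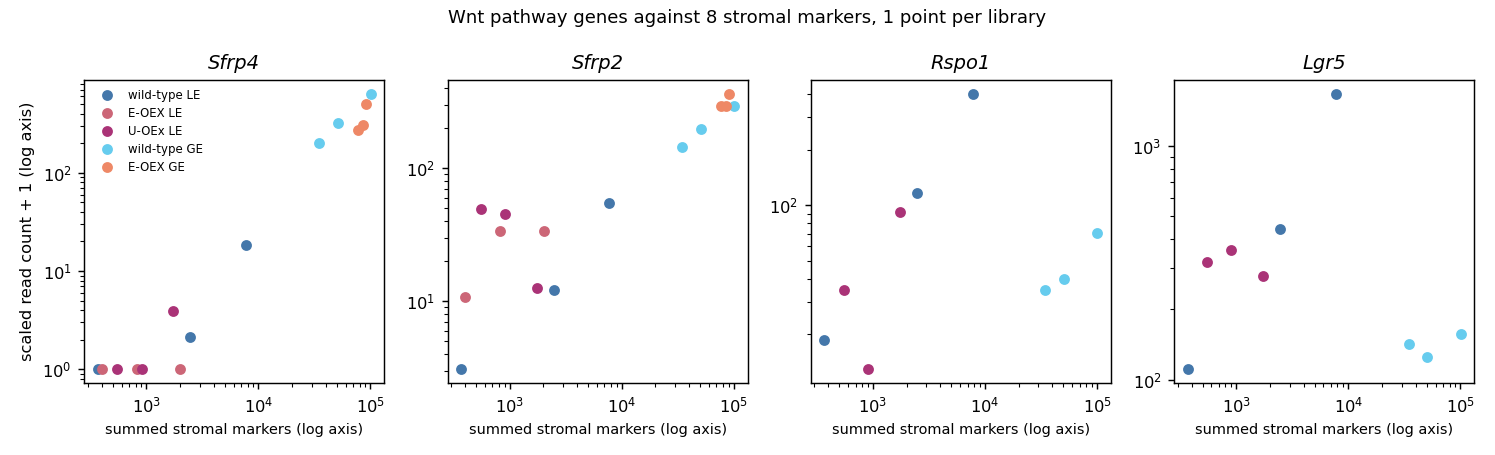
Scaled read counts plus 1 of Sfrp4, Sfrp2, Rspo1 and Lgr5 (log axes) against the sum of 8 stromal markers other than Sfrp4, 1 point per library; Rspo1 and Lgr5 are not listed in E-OEX. Sfrp4 is at 3 scaled reads or fewer in every E-OEX and U-OEx LE library and at 199.9 or more in every GE library, and among wild-type LE libraries all 4 genes are highest where the stromal sum is highest.

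Sfrp4 (chr13:19623104-19632994), a secreted antagonist, was a GE-fraction transcript in both genotypes, at 321, 642 and 199.9 in wild-type GE and at 273, 507 and 308 in E-OEX GE. In LE no read was counted in any E-OEX library and in U-OEx LE 2 libraries were at 0 and the other at 2.88. Set against a floor of 3 reads over the group, E-OEX GE was at least 377.8-fold higher than E-OEX LE. Its levels in E-OEX and wild-type GE did not differ beyond the spread (adjusted p = 0.498, limma). Because stromal markers are also high in these GE fractions, the part of stromal cells in the Sfrp4 signal was not tested.

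In E-OEX, 17 of the 21 listed Wnt genes were higher in GE, against a background of 61.5% of 4903 genes, and 4 lower (Fzd3, Wnt4, Wnt7a, Wnt7b), against 30.1%; this list too was selected on the contrast. Only 12 genes were listed in both genotypes. Among them, Wnt7a, Wnt7b and Fzd3 were lower in GE in both, Sfrp2, Sfrp4, Ror1, Wnt6, Lef1, Fzd4 and Fzd7 were higher in GE in both, and Wnt4 and Fzd5 changed sides. That is 2 of 12 (16.7%), beside 106 of the 2933 genes listed in both (3.61%). In E-OEX the call for Fzd3 was lost without the second GE library (adjusted p = 0.0577, limma), and that for Fzd4 in edgeR (0.0592), in DESeq2 (0.143) and under quantile scaling (0.0697). The same 3 alternatives lost the E-OEX call for Fzd5 (adjusted p = 0.274, 0.520 and 0.266). No read of Ror1 was counted in E-OEX LE, which puts E-OEX GE at least 53.3-fold above it on a floor of 3 reads over the group. Wnt2, listed only in E-OEX, had 2 reads in LE and 22 in GE, a ratio of scaled means of 11.7 with a counting interval from 2.88 to 103. Wnt6 had 2 reads in E-OEX LE and 92 in GE (ratio 48.9, interval 13.2 to 410.1) and Wnt10b 3 and 20 (7.09, interval 2.10 to 37.3, its call lost in edgeR, in DESeq2 and under quantile scaling with adjusted p = 0.0573, 0.235 and 0.806); these 95% intervals cover counting error only. All of these genes lie on the side where stromal and smooth muscle markers are also high.

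**Figure D3:**
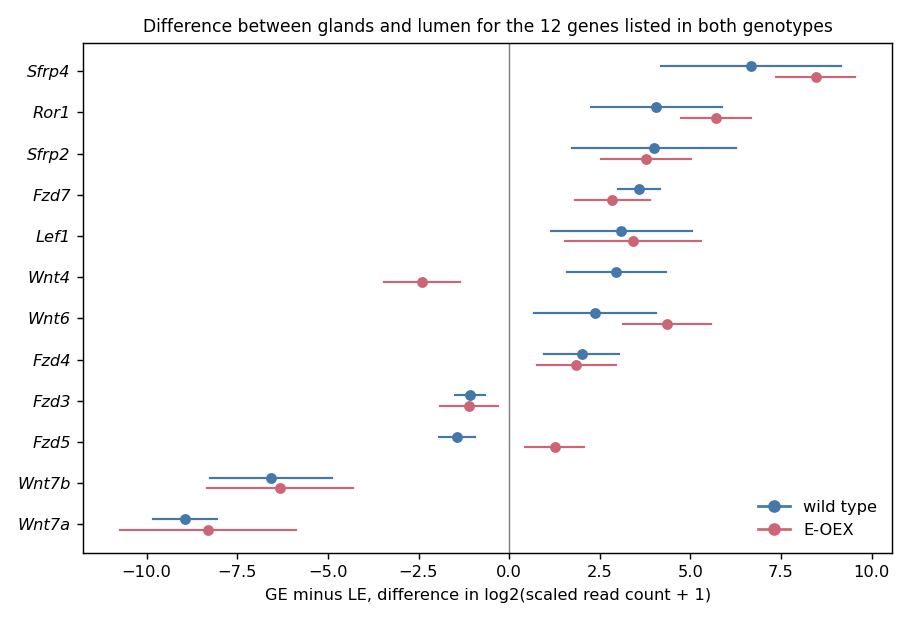
Difference between GE and LE in log2(scaled read count + 1), with limma 95% confidence intervals (3 libraries per group), for the 12 Wnt genes listed in both wild type and E-OEX. Wnt4 and Fzd5 lie on opposite sides of 0 in the genotypes; the other 10 genes lie on the same side.

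Among the 4 ligands listed in both genotypes, Wnt4 (chr4:137277489-137299726) was the one whose place differed. In wild type it was higher in the GE fraction, at 511, 753 and 883 in GE and 196, 100.4 and 35.8 in LE. In E-OEX it was higher in LE, at 250.4, 128 and 109 in GE and 1116, 868 and 539 in LE. Stromal markers were high in the GE fractions of both genotypes, and the part of stromal cells in Wnt4 was not tested. The genotypes did not overlap in either tissue, and the difference of differences was -5.36 on the log2 scale (SE 0.79, adjusted p = 0.00152, limma interaction term over 12 libraries). Fzd5 (chr1:64730558-64737751), a Frizzled receptor of the beta-catenin branch, moved the other way. It stood at 1521, 2191 and 2239.8 in wild-type LE and 636, 791 and 734 in wild-type GE. In E-OEX it stood at 183, 214 and 223 in LE and 365, 601 and 546 in GE. Again the genotypes did not overlap in either tissue, and the interaction was 2.70 (SE 0.43, adjusted p = 0.00215, limma). These were 2 of the 12 Wnt genes tested, 1 positive and 1 negative, beside a background of 10.7% of 2933 genes (5.83% positive, 4.91% negative), and both calls were kept under each alternative and with each library left out. Both gene lists were selected on the contrast between GE and LE. A gene that changes sides between them has a large interaction by construction, so nothing is read from this count. Both genes were picked by their calls, and the share of all genes with separate genotype ranges was not counted. Through edgeR, DESeq2 and quantile scaling the GE and LE levels of Fzd5 within E-OEX did not pass on their own (adjusted p = 0.274, 0.520 and 0.266), although the interaction did.

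Against wild-type LE, 2 of 12 Wnt genes rose in E-OEX LE (background 5.12% of 2600 genes) and 1 fell (5.54%), after reads of the shared genes were rescaled together. Fzd5 fell by 3.41 on the log2 scale (SE 0.40, adjusted p = 0.00157), from a rescaled mean of 2095 ± 359 to 196 ± 34.1 (SD, n = 3, limma fit across all genes). Wnt4 rose by a log2 change of 2.99 (SE 0.64, adjusted p = 0.0196, limma), from 119.5 ± 94.0 to 786 ± 238. Fzd7, which stood at 39.4, 42.0 and 45.8 in wild-type LE and at 389.8, 238 and 121 in E-OEX LE, rose by 2.21 (SE 0.55, adjusted p = 0.0333, limma). Its E-OEX values are uneven, but none reaches down to the wild-type range. Fzd5 kept its call with each library left out. Wnt4 lost its call without the first or second E-OEX LE library or the second or the third wild-type LE library, with adjusted p of 0.0850, 0.0836, 0.0560 and 0.0903 (limma). Fzd7 lost its call without the first or second E-OEX LE library or any wild-type LE library (adjusted p = 0.123, 0.128, 0.0511, 0.0775 and 0.129, limma), and both lost it with no filter on low genes (0.0736 and 0.0591). The 6 gland markers summed to 1321, 215 and 291 in E-OEX LE and to 49.7, 92.2 and 71.5 in wild-type LE. The list was not uniform: Foxa2 stood at 426, 41.8 and 52.9 against 14.5, 4.10 and 12.3, whereas Spink1 was at 0 in all 3 E-OEX LE libraries against 1.04, 17.4 and 6.71, and Ttr was at 3.24 or less in both groups. The library with the highest gland sum was also the highest for Wnt4 and Fzd7; the part of glandular RNA was not tested.

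Wnt7b did not pass in this comparison (log2 change 1.48, SE 0.45, adjusted p = 0.0663, limma), although its rescaled ranges did not overlap. It passed without the third E-OEX LE library (adjusted p = 0.0278, limma) and, with all libraries, in DESeq2 (0.0277). The remaining 8 genes did not pass: Fzd3 (-0.76), Fzd4 (1.27), Lef1 (0.11), Ror1 (-1.24), Sfrp2 (0.72), Sfrp4 (-1.77), Wnt6 (-0.52) and Wnt7a (-0.54), all as log2 changes, with Lef1 changing sign when single libraries were left out.

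In GE, 2 of 12 Wnt genes rose in E-OEX against wild type (background 9.72% of 2850 genes) and 3 fell (13.8%). Wnt4 fell by 2.66 on the log2 scale (SE 0.39, adjusted p = 0.0012, limma), from a rescaled mean of 839 ± 217 to 142 ± 79.9 (SD, n = 3). Fzd5 fell by 1.0 (SE 0.24, adjusted p = 0.0161, limma), beside a fall of 3.41 in LE. The interaction of a gene that changes sides is large by construction, so these falls are given side by side only. Fzd3, a Frizzled receptor known from planar polarity, fell by 1.08 (adjusted p = 0.0164, limma), from a rescaled mean of 393 ± 14.5 to 189 ± 47.8. As deposited, it stood at 311, 352 and 341 in wild-type GE and at 261, 177 and 223 in E-OEX GE. Fzd7 rose by a log2 change of 1.18 (adjusted p = 0.00498, limma), from 465, 619.9 and 478 to 1658, 1654 and 1550.5 as deposited. Fzd4, known as the receptor of norrin in blood vessels, rose by 0.83 (adjusted p = 0.0480, limma), from 165, 203 and 218 to 342, 496 and 644 as deposited. The ranges of all 5 genes were separate after rescaling. These genes had been picked by their calls, and the share of all genes with separate ranges was not counted.

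The Wnt4 call in GE was kept under every alternative and with each library left out. Fzd7 kept its call with each library left out and lost it in a single fit over all 5 groups (adjusted p = 0.0720, limma), as did Fzd5 (0.0796) and Fzd4 (0.368; 0.0782 under quantile scaling). Fzd4 lost its call without the second or the third E-OEX GE library or any wild-type GE library (adjusted p = 0.124, 0.140, 0.133, 0.0994 and 0.0843, limma). Fzd3 lost it without the second or the third E-OEX or the first or the third wild-type GE library (0.0559, 0.0516, 0.0973 and 0.0624), and Fzd5 without any 1 of the wild-type GE libraries (0.0809, 0.0516 and 0.0624). On the deposited scale the median change of all 2850 genes was 0.497 instead of 0.05, and relative to that shift the 5 genes kept their directions, with Fzd3 and Fzd5 no longer called (adjusted p = 0.10 and 0.150, limma). Smooth muscle markers were higher in every E-OEX GE library than in every wild-type GE library, and the endothelial markers Pecam1, Cdh5, Kdr and Emcn summed to 1766 to 2949 in wild type and 2296 to 6409 in E-OEX. Fzd4 was highest, at 644, in the E-OEX GE library with the highest endothelial sum, 6409; the part of these cells in Fzd4 and Fzd7 was not tested.

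U-OEx LE gave the widest view, since 28 Wnt genes could be set against wild-type LE. Of these, 12 rose (background 29.1% of 5947 genes) and 6 fell (27.8%), so 18 of 28 (64.3%) changed beside 56.9% of all genes. The median log2 change was 0.89 over the 28 Wnt genes and 0.09 over all genes tested. All of these genes were listed in wild type with GE and LE means at least 2-fold apart. The wild-type LE libraries used in that selection are the baseline here, and the part of the selection in these changes was not tested. E-OEX and U-OEx are each set against the same 3 wild-type LE libraries, so their changes share those libraries and are given side by side only.

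Among the ligands, Wnt11 fell by 7.09 on the log2 scale (SE 0.58, adjusted p = 4.0e-05, limma), from 7872, 10924 and 11111 in wild-type LE to 33.1, 207 and 54.7 in U-OEx LE. Wnt5b (chr6:119432531-119544347), another ligand of the beta-catenin-independent branch, rose by a log2 change of 6.42 (SE 0.48, adjusted p = 2.7e-05, limma), from 2.07, 5.12 and 2.24 to 512, 230.2 and 332. The groups are far apart for both genes, and for Wnt5b the U-OEx LE values, as deposited, also lie above the wild-type GE values of 116, 149 and 123. Wnt4 rose by 3.75 (SE 0.59, adjusted p = 0.00095), to 1162, 1549 and 1040.2, beside the 2.99 of E-OEX LE. Wnt7b rose by 2.25 (SE 0.31, adjusted p = 0.00053, limma), beside 1.48 in E-OEX LE. Wnt7a fell by 1.07 (SE 0.31, adjusted p = 0.0184, limma), but this call was lost without the first or the third U-OEx or the second or the third wild-type LE library (adjusted p = 0.113, 0.102, 0.0526 and 0.0509) under quantile scaling (0.40) and in the single fit over all groups (0.305).

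The promoters of Wnt11 and Wnt5b are shown because these ligands had the largest changes of opposite sign and because theirs were the only promoters, of 43 found for 34 of the 51 genes, that held a TCF/LEF motif. Each run is the 250 bases before a RefSeq gene start (GRCm38.p6), 5′ to 3′ on the gene's strand, with the motif in capitals.
Wnt11 (chr7:98834862-98835111, plus strand): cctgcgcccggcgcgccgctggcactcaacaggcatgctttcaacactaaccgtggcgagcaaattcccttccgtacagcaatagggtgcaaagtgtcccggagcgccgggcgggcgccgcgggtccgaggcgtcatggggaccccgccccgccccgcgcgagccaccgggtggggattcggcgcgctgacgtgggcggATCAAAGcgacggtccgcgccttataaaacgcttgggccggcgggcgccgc
Wnt5b (chr6:119449387-119449636, minus strand): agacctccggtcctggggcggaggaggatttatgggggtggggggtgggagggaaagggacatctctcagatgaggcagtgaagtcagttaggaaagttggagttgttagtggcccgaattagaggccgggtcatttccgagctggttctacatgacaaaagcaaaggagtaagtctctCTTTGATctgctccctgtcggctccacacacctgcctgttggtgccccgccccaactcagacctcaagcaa
The motif searched was CTTTGAA or CTTTGAT on both strands. It begins 51 bases before the start in Wnt11, on the opposite strand, and 71 bases before it in Wnt5b, and it was held by 2 of 43 Wnt gene promoters (4.65%) and by 7.48% of all 32851 promoters. The motif of RBPJ, the DNA-binding partner of Notch, searched as GTGGGAA on both strands, was held by 2 of 43 (4.65%), those of Tcf7l1 and Wnt9a, and by 5.42% of all promoters. The searched motifs do not overlap each other. A match is a run of letters and not evidence of binding.

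The Frizzled receptors moved in both directions in U-OEx LE: 4 of the 7 tested rose and 2 fell. Fzd7 (chr1:59482424-59486955), a receptor of the beta-catenin branch, rose by a log2 change of 4.12 (SE 0.27, adjusted p = 1.6e-05, limma), from values of 39.4 to 45.8 to 842, 639 and 820.2. Fzd1 rose by 3.40 (SE 0.34, adjusted p = 0.000105, limma), from 260.0, 264 and 129 to 2474, 2353 and 1877. Fzd10 rose by 2.28 (SE 0.34), from 269, 161 and 296 to 1210.2, 1511 and 858, with adjusted p = 0.00079 (limma). None of these ranges overlapped, but these genes were picked by their calls, and the share over all genes was not counted. Fzd10, higher in LE than GE in wild type, and Fzd1 and Fzd7, higher in GE, thus rose alike. Fzd5 fell by 3.73 (SE 0.27, adjusted p = 2.1e-05, limma), to 187, 152 and 116, beside its fall of 3.41 in E-OEX LE. Fzd6, a receptor known from hair and planar polarity, fell by 3.39 (SE 0.44, adjusted p = 0.00037, limma), from 237, 131 and 199 to 24.8, 13.3 and 14.4. Fzd3 did not pass (log2 change -0.02, of the other sign under quantile scaling and on the deposited scale). Fzd4 rose by 1.42 (adjusted p = 0.0337, limma), from 25.9, 83.0 and 50.3 to 119, 96.0 and 199, a call lost without the first or the third U-OEx or wild-type LE library (0.0753 and 0.123, and 0.0752 and 0.0847) and under quantile scaling (0.129).

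**Figure D4:**
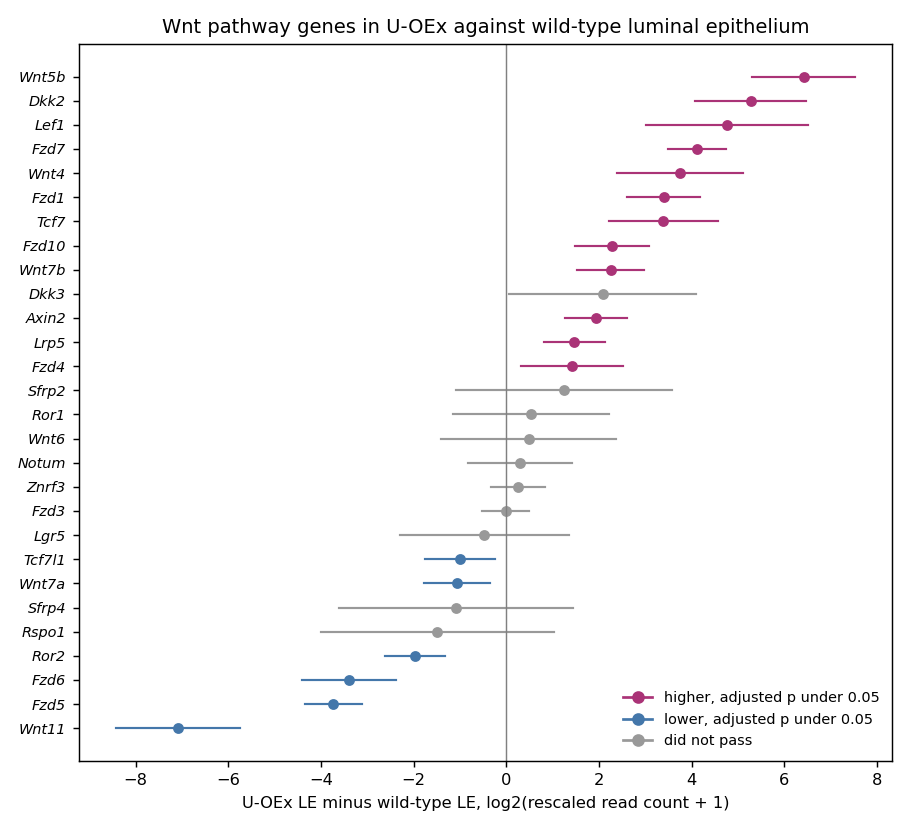
Log2 change of the rescaled read count plus 1 in U-OEx LE against wild-type LE, with limma 95% confidence intervals (3 libraries per group), for the 28 Wnt genes listed in both; colours mark genes with an adjusted p under 0.05. Wnt5b, Dkk2, Lef1 and Fzd7 have the highest values and Wnt11, Fzd5 and Fzd6 the lowest.

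The co-receptors divided as well. Lrp5, the partner of Frizzled in the beta-catenin branch, rose by a log2 change of 1.47 (SE 0.28, adjusted p = 0.00273, limma), from 726, 444 and 522 to 1682, 1412 and 1596. Ror2, a Wnt receptor kinase of the other branch, fell by 1.97 (SE 0.28, adjusted p = 0.00059, limma), from 1174, 2409 and 1865 to 544, 416 and 403. In both, the U-OEx LE values lay outside the wild-type LE range. Both were picked by their calls, and the share of all genes with separate ranges was not counted. The U-OEx LE values overlapped the wild-type GE values as deposited, 1538, 1690.1 and 1892 for Lrp5 and 428, 566 and 405 for Ror2. Ror1 did not pass and was at 5.12 or less in every LE library.

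Of the cytoplasmic and nuclear members, Axin2 rose by a log2 change of 1.94 (SE 0.29, adjusted p = 0.00072, limma), from 273, 289.8 and 211 to 736, 1215 and 1115. Lef1 (chr3:131110471-131224356), a factor that carries beta-catenin to DNA, rose by 4.77 (SE 0.76, adjusted p = 0.00102, limma), from 5.18, 18.4 and 1.12 to 135, 176 and 222. Tcf7, a related factor, rose by 3.39 (SE 0.51, adjusted p = 0.00076, limma), from 52.8, 59.4 and 17.9 to 406, 578 and 315. No wild-type LE library reached the U-OEx LE range for any of the 3, which were picked by their calls. How many of all genes show this was not counted. As deposited, the wild-type GE values of Axin2 lay above the U-OEx LE range, at 1700.2, 1751 and 2729, and those of Lef1 and Tcf7 lay below it. Lef1 and Tcf7 are also known from T cells: in the same U-OEx LE libraries the leukocyte gene Ptprc stood at 1570, 441 and 2705 and the T cell gene Cd3e at 59.7, 28.4 and 34.6, and neither is listed in the wild-type tables. The leukocyte markers Cd68 and Adgre1 are listed there. As deposited, Cd68 stood at 219 to 278 in wild-type LE and at 293 to 462 in U-OEx LE. Adgre1 stood at 6.14 to 36.3 in wild-type LE and at 46.2 to 108.5 in U-OEx LE. The part of leukocytes in Lef1 and Tcf7 was not tested. Tcf7l1, known as a repressor of the family, fell by 1.0 (adjusted p = 0.0307, limma), from 214, 247 and 285 to 148, 157 and 83.6, a call lost without the first or the third U-OEx or the third wild-type LE library (0.0681, 0.122 and 0.0939).

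Among the secreted antagonists, grouped by symbol and so including Dkk3, 1 of 5 passed. Dkk2, which binds Lrp5 and Lrp6, rose by a log2 change of 5.28 (SE 0.52, adjusted p = 9.3e-05, limma), from 7.25, 9.22 and 2.24 in wild-type LE to 225, 300.4 and 243. The U-OEx values, as deposited, lie above those of wild-type GE, 34.1, 37.0 and 49.3, as well. Dkk3 did not pass (log2 change 2.08, adjusted p = 0.0743, limma) and stayed far under its wild-type GE level, at 172, 239 and 165. Notum, Sfrp2 and Sfrp4 did not pass. In the R-spondin group Znrf3 (log2 difference 0.25), Lgr5 (-0.47) and Rspo1 (-1.48) did not pass; the wide spread of Lgr5 and Rspo1 between wild-type LE libraries is described above.

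Set against E-OEX LE, U-OEx LE was higher in 4 of 19 Wnt genes (background 6.99% of 4266 genes) and lower in 0 (8.06%), 4 of 19 beside 15% of all genes (limma; 7 of the 19 had an unadjusted p under 0.05 in either direction). DESeq2 called 1 gene lower and edgeR none. Lef1 was higher by 4.43 on the log2 scale (SE 0.76, adjusted p = 0.0104, limma), with 17.3, 9.99 and 1.08 in E-OEX LE. Lgr6, an R-spondin receptor, was higher by 3.63 (SE 0.82, adjusted p = 0.0233, limma), at 68.9, 147 and 23.1 against 11.0, 1.82 and 2.16. Fzd7 was higher by 1.63 (SE 0.43, adjusted p = 0.0370) and Wnt10b by 2.52 (SE 0.64, adjusted p = 0.0341, limma), the latter at only 7.35, 7.998 and 15.4 against 0.913, 1.82 and 0 in E-OEX LE, where it had 3 reads in all. The rescaled ranges of these 4 genes, picked by their calls, did not overlap, and the share over all genes was not counted. All 4 calls were lost without the first U-OEx library (adjusted p = 0.0637 for Lef1, 0.112 for Lgr6, 0.148 for Fzd7 and 0.105 for Wnt10b, limma). Lef1 was also lost without the third U-OEx library (0.0650), and Lgr6 without the second U-OEx (0.0712) or the second or the third E-OEX LE library (0.0662 and 0.0606). Fzd7 was lost without the second or the third U-OEx or E-OEX LE library (0.0712, 0.125, 0.0663 and 0.0552), and Wnt10b without the second or the third U-OEx or the third E-OEX LE library (0.0677, 0.127 and 0.0802). With no filter Fzd7 (0.0708), Lgr6 (0.0667) and Wnt10b (0.0515) were lost, in edgeR Fzd7 (0.0554) and Wnt10b (0.0614), and with a pseudocount of 0.1 Wnt10b (0.0749). Wnt4, Wnt7a, Wnt7b and Fzd5 did not pass here, with differences of 0.48, -0.82, 0.49 and -0.60; Fzd8 (-1.24, adjusted p = 0.0613, limma) also did not.

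The U-OEx tables, which are not restricted by tissue contrast, allow the levels of 50 Wnt genes to be ranked per kilobase of exon in LE. Wnt7a and Wnt7b led, at 602 ± 248 and 544 ± 102 scaled reads per kilobase (SD, n = 3), followed by Fzd1 at 532 ± 75.2, Fzd10 at 367 ± 100.6 and Wnt4 at 298 ± 63.4. The ranges of Wnt7a, Wnt7b and Fzd1 overlap, so their order is not fixed. Next came the inhibitors and ligases that limit the pathway, Axin1 at 249 ± 19.7, Rnf43 at 226 ± 20.1 and Axin2 at 186 ± 45.9. Fzd7 (169 ± 24.6), Tcf7 (165 ± 50.8), Lrp5 (161 ± 14.1) and the secreted inhibitor Wif1 (148 ± 32.0) followed without separating from each other. Of the 14 Wnt genes listed only in U-OEx, Wnt16 (69.5 ± 37.4), Wnt5a (10.8 ± 3.22) and Wnt2b (8.48 ± 1.11) were the ligands with measurable levels. Wnt10a and Rspo4 had 2 reads each, all in 1 library, and Fzd9 had none in any, over 13541644 to 14981505 reads per library.

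**Figure D5:**
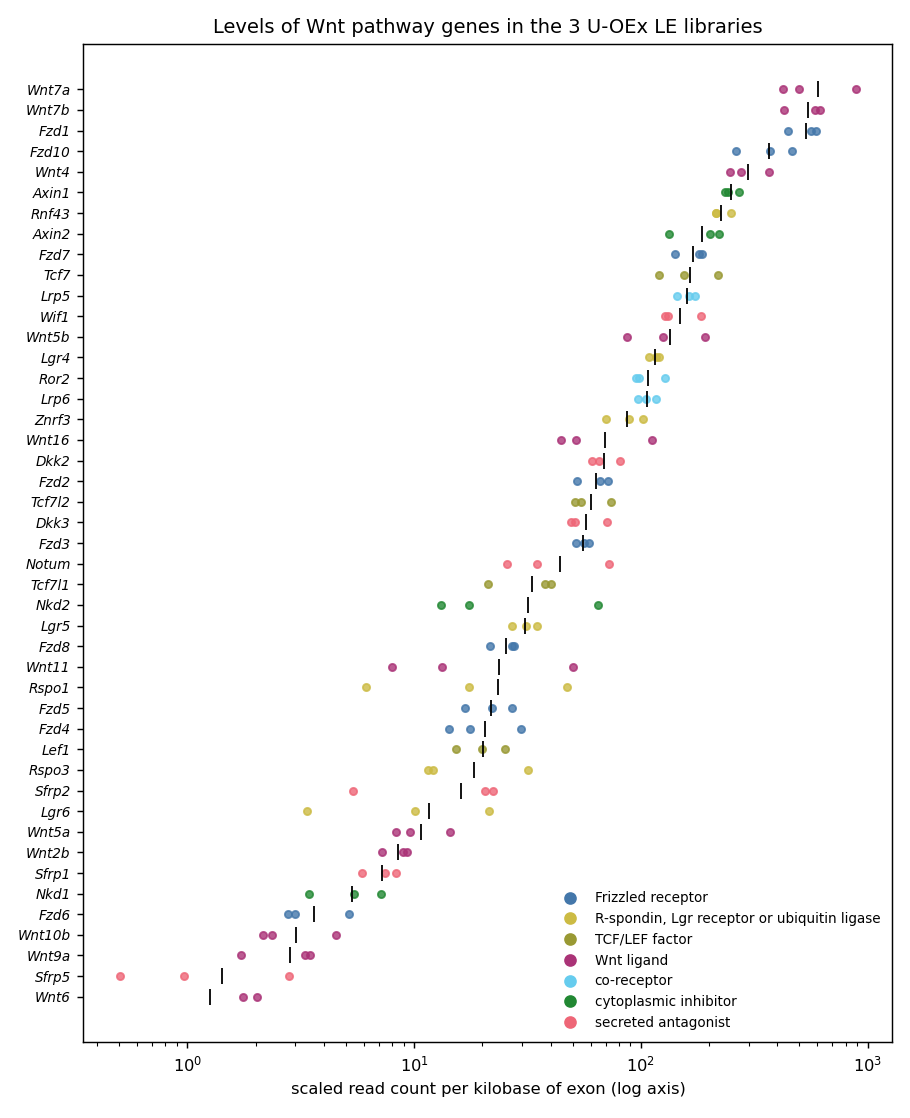
Scaled read count per kilobase of exon (log axis) of the Wnt genes with a mean of at least 1 in the 3 U-OEx LE libraries; points are libraries, ticks are means, colours are roles, and a library at 0 is not drawn. Wnt7a, Wnt7b and Fzd1 lead with overlapping values, and Wnt6 has the lowest mean shown.

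The rest of the pathway was followed through 54 other genes. In U-OEx LE 4 of the 23 tested rose (background 29.1%) and 9 fell (27.8%). The 4 that rose are in the list of transcriptional targets, of which 7 were tested: Sp5, a beta-catenin target (log2 change 7.92, adjusted p = 4.4e-05, limma), Cd44 (4.75), Sox9 (2.34) and Myc (2.19). Of the genes of secretion and co-reception 4 of 4 tested fell by limma and DESeq2 and 3 of 4 by edgeR (background 27.8%), among them Porcn, the acyltransferase that lipidates Wnt proteins (-2.21, adjusted p = 0.0077, limma), and Kremen2, a partner of Dkk proteins (-2.23). In E-OEX LE 0 of 13 tested passed by limma, with 3 at an unadjusted p under 0.05, 0 called by edgeR and 1 by DESeq2; Myc stood at 1.80 (adjusted p = 0.0851, limma). In E-OEX GE 3 of 13 rose (Porcn 1.19, Myc 1.33, Tbx3 1.12; background 9.72%) and 1 fell (Tle1 -1.08; 13.8%). In the interaction 0 of 13 passed by limma, with 4 at an unadjusted p under 0.05, 0 called by edgeR and 3 by DESeq2. Against E-OEX LE, 2 of 17 were higher in U-OEx LE (Gpc3, Prickle2; background 6.99%) and 1 lower (Porcn, -2.39; 8.06%). Several of these genes, like Sp5 and Sox9 (log2 differences of 6.68 and 4.62), are higher in wild-type GE than LE, and the summed gland markers were above those of wild-type LE in every U-OEx LE library, although Spink1 and Ttr were at 0 in all 3; the part of glandular RNA was not tested.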

How the data were processed

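The authors deposited 1 table of normalised signal per library, with 15 libraries in all. No header or label names the aligner, counter or scaling; builds GRCm38 and mm10 are given per the submitters' processing notes. The deposited signal of every gene was a whole multiple of 1 step per library (100% of values within 0.01), so reads were recovered from it. No label says that reads were assigned by strand, so overlapping genes cannot be told apart. RNA was purified with an RNeasy kit and libraries were made with NEBNext Ultra, per the labels' protocols.

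The members and the lists of markers and other pathway genes were chosen with earlier results of these data known. Gene positions and exon lengths came from GENCODE M21 (GRCm38), which matched 27440 of 27495 Ensembl IDs and all 51 Wnt symbols. A marker of the luminal list is not reported here. Promoters came from RefSeq (GRCm38.p6).

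The main test was limma 3.58.1 (R 4.3.3; lmFit, and eBayes with a trend) on log2(value + 1), for genes with a mean of at least 1, with Benjamini-Hochberg adjustment over all genes in each of 7 comparisons and a threshold of 0.05. Within a genotype and for the interaction the deposited values were used. Between genotypes, whose tables may have been scaled separately, recovered reads of the shared genes were rescaled with TMM of edgeR 4.0.16. Fold changes on this scale understate low genes. Alternatives were pseudocounts of 0.1 and 10, no filter, a mean of at least 10, a replicate block, edgeR's quasi-likelihood test, DESeq2 1.42.0, quantile scaling, the deposited scale, 1 fit over 5 groups, and leaving out each library. The scripts were tested on simulated data. Replicates differed by more than sampling noise. Genes past the threshold between genotypes or in the interaction, with Wnt7a and Sfrp4, are given in every library of the comparison that called them, and others by ranges and counts.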

Additional observations from a re-analysis of the deposited data

Results flagged for a closer look

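Wnt4 and Fzd5 had genotype effects that differed between glands and lumen by limma's interaction term. Both gene lists were selected on the contrast between GE and LE, so a gene that changes sides has a large interaction by construction. For Wnt4 the E-OEX effect in GE minus that in LE was -5.36 on the log2 scale, and for Fzd5 it was 2.70. In GE and LE alike, the 3 E-OEX values of each gene lay outside the wild-type range, and the share of all genes doing so was not counted. Summed smooth muscle markers were higher in every E-OEX than in every wild-type GE library, while stromal sums overlapped, and summed gland markers were higher in every E-OEX than in every wild-type LE library; their part in these values was not tested.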

How the results depend on the processing

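Of 63 single-gene results past the threshold, 44 kept their call and sign under every alternative run, as did 19 of the 32 from genotype comparisons or the interaction. No result past the threshold changed sign. With 3 of 12 genes called in E-OEX against wild-type LE, 1 was called with no filter, and 1 to 4 with a library left out. In GE 5 became 3 on the deposited scale, 2 in 1 fit over 5 groups, and 2 to 5 with a library left out. The 21 calls between E-OEX GE and LE became 13 in edgeR, 12 in DESeq2 and 11 under quantile scaling, which moved the median of all genes from 1.75 to 0.44 and the share of calls higher in GE from 67.2% to 46.2%. In U-OEx against wild-type LE the 18 became 6 in 1 fit, where 12 genes were tested, and 15 to 18 with a library left out; against E-OEX LE the 4 became 2 with no filter (1 of them among the 4), 2 in edgeR (both among the 4) and 0 to 5 with a library left out. Where no construction is named, the cause was not tested. On the deposited scale 71.6% instead of 41.3% of calls were higher in E-OEX than wild-type GE, and 58.6% instead of 48% in LE. Quantile scaling moved the interaction's median from 0.33 to 0.001 and its share of positive calls from 54.3% to 42.9%.

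Values not past the threshold changed sign as follows (log2). In GE, Wnt7a came to 0.20 with a pseudocount of 10, 0.998 in edgeR, 1.05 in DESeq2, 0.28 on the deposited scale and 0.011 in 1 fit, and Sfrp4 to 0.017 on the deposited scale. In the interaction Wnt7b came to -0.54 with a pseudocount of 10 and -0.21 under quantile scaling, Fzd3 to 0.054 in DESeq2, and Fzd4 to 0.078 and Lef1 to -0.048 under quantile scaling. In U-OEx against wild-type LE Fzd3 came to 0.039 under quantile scaling and 0.0071 on the deposited scale; against E-OEX LE Fzd4 came to 0.0030 on the deposited scale and 0.11 in 1 fit. With a library left out, ranges crossed 0 for Lef1 in LE (-0.68 to 1.15) and GE (-0.14 to 0.48) and Wnt7a in GE (-1.34 to 0.92). They also did for the interaction of Fzd3 (-0.16 to 0.12), Fzd4 (-0.54 to 0.29), Lef1 (-0.60 to 1.11), Wnt7a (-0.56 to 1.70) and Wnt7b (-0.88 to 0.83), for Fzd3 in U-OEx against wild-type LE (-0.060 to 0.11), and for Fzd4 against E-OEX LE (-0.50 to 0.13).

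The deviations of same-numbered libraries correlated weakly or not at all (correlations from -0.284 to 0.188). With 3 libraries per group this cannot tell whether same-numbered libraries came from the same animals. The main test used no pairing. With the number as a replicate block the counts were 3, 5, 27, 20, 2, 18 and 3 for E-OEX against wild-type LE, the same in GE, wild-type GE against LE, E-OEX GE against LE, the interaction, U-OEx against wild-type LE and U-OEx against E-OEX LE; Tcf7l1 (adjusted p = 0.0608, limma) and Wnt10b (0.0600) were then no longer called in the last 2. In no comparison did every library correlate best with its own number. Genes under about 3 reads per library limit the ratios of Wnt2, Wnt6 and Wnt10b.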

Other observations

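Some Wnt genes of the E-OEX tables are not listed in wild type and were described only by counts above. In E-OEX the intracellular inhibitors Nkd1 and Nkd2 stood at 304, 189.7 and 151 and at 484, 416 and 356 in GE, against 28.3, 37.2 and 9.71 and 78.5, 261 and 191 in LE. Fzd8 stood at 891, 748 and 986 in E-OEX GE and at 318, 447 and 246 in E-OEX LE, a contrast on which the E-OEX list was selected. In U-OEx LE it stood, as deposited, at 164, 161 and 129.7. After rescaling, its difference between U-OEx and E-OEX LE did not pass (adjusted p = 0.0613, limma). The R-spondin Rspo3 stood at 177, 119.6 and 105 in E-OEX GE and at 61.2, 13.6 and 22.7 in LE, and Sfrp1 at 44.1, 126 and 104 and at 27.4, 47.2 and 16.2, where the ranges overlapped. Wnt9a stood at 79.1, 49.4 and 32.8 in E-OEX GE, at 20.996, 19.98 and 22.7 in E-OEX LE and at 11.0, 11.6 and 5.76 in U-OEx LE.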
